A study of Mus musculus with 12 samples.

Results

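An F1 hybrid inherits each autosomal gene once from C57BL/6J (B6) and once from Cast/EiJ (Cast). Reading both copies within a single library compares them at a matched cellular state and asks which differences travel with the allele (cis) rather than with the cell (trans). Such data were taken from 6 F1 libraries of adult mouse retina, and the genes compared were the 10406 autosomal protein-coding genes whose allele-specific unique hits, both alleles summed, averaged 50 or more in a library. They were drawn from 21422 autosomal protein-coding genes among 37991 genes in all. The other 11016 fell below this minimum, and 5159 of them had no allele-specific hit.

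F1 B6xCast mice had a Cast/EiJ mother and a C57BL/6J father, and F1 CastxB6 mice had a C57BL/6J mother and a Cast/EiJ father, with 3 libraries for each cross. F0 C57BL/6J and F0 Cast/EiJ, the parental inbred strains, had 3 libraries each and entered only as a separate readout. All mice were males aged 8 weeks with no treatment, and each library was made from a pool of 6 to 8 retinas. The replicates are thus pools and not single mice. For each gene, edgeR draws the estimate of the spread between pools toward that of the other genes. The p-values therefore do not rest on a gene's own spread alone. The common coefficient of variation beyond counting error was 0.0146. F0 libraries were read on 1 lane and F1 libraries on 2. A unique hit is a read pair that maps to a single gene and, in F1, to a single allele of it, which requires a polymorphism between the strains within the read pair. The log2 ratios below are Cast over B6 hits from edgeR's quasi-likelihood test with the library as a block. They are positive where the Cast allele was higher, and a gene was called when its Benjamini-Hochberg adjusted p over all 10406 genes was under 0.05.

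The libraries held 8427750 to 11839061 allele-specific hits on these genes. The Cast allele took 49.5% to 49.7% of them. On the X chromosome, of which a male has only the maternal copy, 99.4% to 99.5% of hits fell on the strain of the mother. Every rod marker had allele-specific hits. The 5 markers of Mueller glia summed to 5269 to 5578 hits per 1000000 autosomal unique hits (HPM) in the F1 libraries, and the 4 markers of lens and the 4 of retinal pigment epithelium to at most 20.2 and 11.7. Microglial Aif1 and the hemoglobin gene Hba-a1 had no allele-specific hit.

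Allelic imbalance was common and mostly small. Averaged over both crosses, 6139 genes were called (59% of those tested), of which 2676 were higher from the Cast allele (25.7%) and 3463 from the B6 allele (33.3%). The calls numbered 4872 in F1 B6xCast (46.8%) and 4841 in F1 CastxB6 (46.5%). In both crosses and in the same direction, 3888 genes were called (37.4%), 1667 with Cast higher (16%) and 2221 with B6 higher (21.3%). With TMM factors, which scale the alleles separately, 3876 genes were called and 50.1% of them had Cast higher, against 42.9% here, so counts by direction depend on the scaling. Since the crosses share no library and exchange the parent that gives each allele, these genes kept the direction of the strain whichever parent passed it on. The median log2 ratio over all genes tested was -0.03, the median absolute log2 ratio 0.17 and the median standard error 0.060. DESeq2 with the same design and library sizes called 1946 genes in both crosses, and a test without the library as a block called 2489.

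Of the 3888 genes, 952 differed by less than 0.25 on the log2 scale and 1722 by between 0.25 and 0.58. The fold was at least 1.5 in 1214 (11.7% of genes tested), 507 with Cast higher (4.87%) and 707 with B6 higher (6.79%). It was at least 2 in 503 genes (4.83%), 237 with Cast higher (2.28%) and 266 with B6 higher (2.56%). Above a 4-fold difference the directions were even, with 78 genes each. The 6 Cast values and 6 B6 values did not overlap in 1118 genes (10.7%), among them 961 of the 1214.

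**Figure D1:**
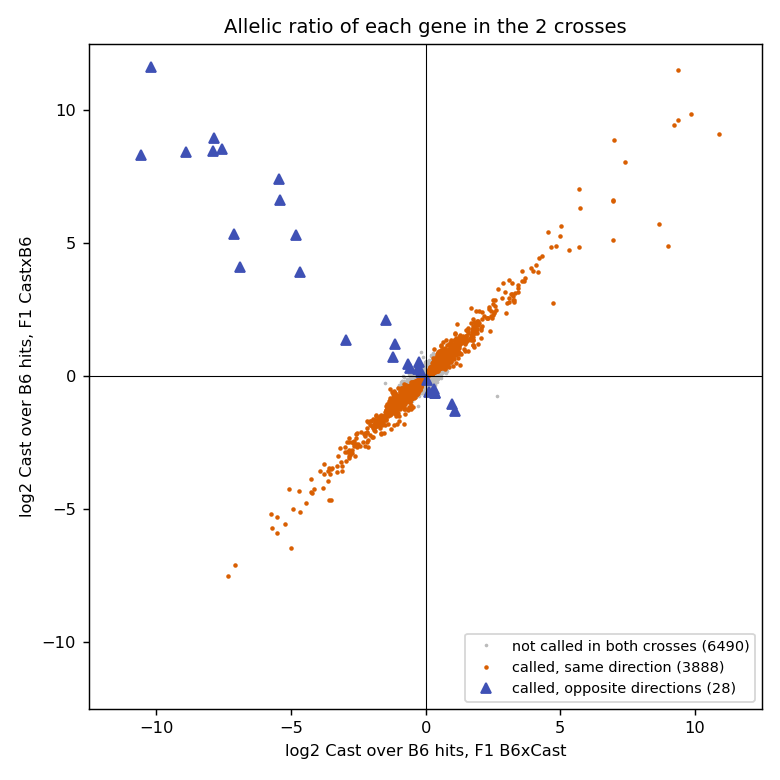
Each point is a gene, with its log2 ratio of Cast over B6 hits in F1 B6xCast on the x axis and in F1 CastxB6 on the y axis (3 libraries each). The 3888 genes called in the same direction lie along the rising diagonal, the 28 called in opposite directions lie in the upper left and lower right, and genes not called in both crosses gather at 0.

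Depth set how small a difference could be called. Among the 2959 genes with 50 to 200 hits per library, 27.3% were called in both crosses, and the smallest called difference was 0.29 on the log2 scale. Among the 248 genes with at least 5000 hits it was 77.0%, down to a difference of 0.037. The share with a fold of at least 1.5 ran the other way, from 19.7% in the shallowest to 5.65% in the deepest group. The count of calls in an abundant group of genes, such as those of rods, is read here together with the size of the difference.

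The largest imbalances included genes for which a single allele supplied nearly all hits. Gk5, a member of the glycerol kinase family (NCBI37 chr9:96019781-96085046), had 25 to 38 B6 hits per library (median 33) and 2755 to 3958 Cast hits (median 3552.5). Its Cast share was 98.9% to 99.3% in all 6 libraries, with a log2 ratio of 6.79 (SE 0.043, adjusted p = 1.4e-137). In F0 it stood at 3.70 ± 0.87 HPM in C57BL/6J and 341 ± 27.2 in Cast/EiJ (SD, n = 3). Rtkn2, which encodes a rhotekin that binds small GTPases (chr10:67442318-67522488), had 13 to 23 B6 hits against 522 to 731 Cast hits, a log2 ratio of 5.34 (SE 0.081). Both genes were thus read almost wholly from the Cast copy in either cross.

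Atp4b, the beta subunit of the gastric proton pump (chr8:13386209-13396778), had 1 B6 hit and 2045 Cast hits over the 6 libraries, a Cast share of 99.95% (exact 95% Clopper-Pearson interval 99.7% to 99.9988%, counting error only). F0 Cast/EiJ libraries held 66.5 ± 15.2 HPM of it and F0 C57BL/6J libraries 0.33 ± 0.15. The reverse case was Myo7a, the motor protein myosin VIIa that moves cargo in photoreceptors and pigment epithelium and is a gene of Usher syndrome (chr7:105199570-105268034). It had 238 to 349 B6 hits (median 322.5) and 3 to 10 Cast hits (median 7.5), a log2 ratio of -5.38 (SE 0.12, adjusted p = 6.7e-76). The F0 levels were 52.8 ± 6.91 and 1.15 ± 0.39 HPM. Spata1 (chr3:146120167-146162717), first named from testis, had 227 to 341 B6 hits against 13 to 20 Cast hits, and its log2 ratio was -4.06. It overlaps Ctbs and Dnase2b, and the libraries do not mark the strand.

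**Figure D2:**
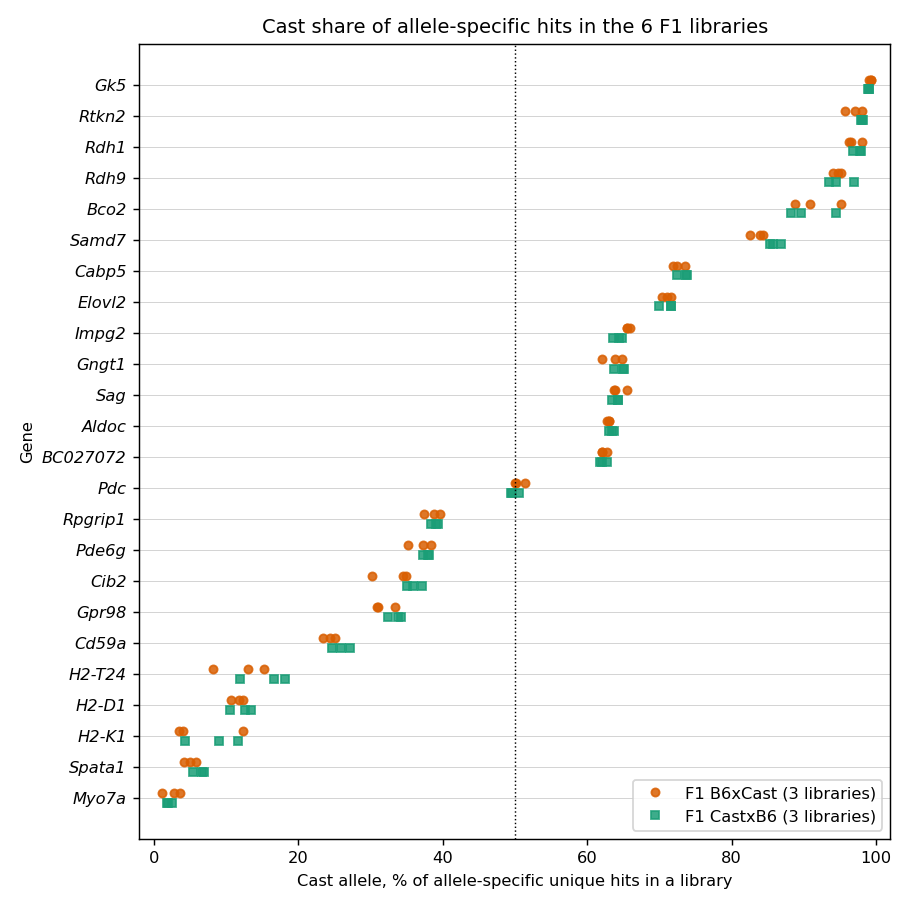
The Cast share of allele-specific hits (x axis, percent) is plotted for 24 genes (y axis) in each of the 3 F1 B6xCast libraries (circles) and the 3 F1 CastxB6 libraries (squares), with equal shares marked by the dotted line at 50. Gk5, Rtkn2 and Rdh1 sit above 95% and Myo7a below 4% in all 6 libraries, while Pdc lies between 49.5% and 51.4%.

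Many of the other genes with the largest ratios have near-identical copies elsewhere in the genome, and their values are uncertain. Among the 10 largest in each direction with at least 200 hits per library were the ribosomal genes Rpl38, Rps6 and Fau with Cast higher and Rpl37, Rps2, Rpl21, Rps18 and Rps3a with B6 higher, the chromatin protein gene Hmgn2, the tubulin gene Tuba1c and the gene models Gm8910, Gm6180 and Gm5561. In F0, unique hits made up a median of 77.6% of the authors' count equivalents, which also divide shared reads. For Rps6 this share was 10.2%, for Fau 10.7%, for Tuba1c 20.5% and for Hmgn2 25.1%. Fau had 6 to 18 B6 hits and 1013 to 1408 Cast hits per library, yet 1.94 ± 0.71 and 1.91 ± 0.44 HPM in the F0 strains. Rps18 had 999 to 1755 B6 hits and 82 to 107 Cast hits, but its mean count equivalents were 1715 for B6 and 1690 for Cast. Gm5561 was higher from the B6 allele in F1 (log2 ratio -4.60) and had no hit in any F0 C57BL/6J library and 17.3 ± 3.56 HPM in F0 Cast/EiJ. The F0 difference of Rps18, -4.20, also comes from unique hits. The part of shared reads in these ratios was not tested.

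A different mismatch was seen in genes with few informative read pairs. Sgk1, a serum- and glucocorticoid-regulated kinase, had 315 to 503 B6 hits and 19 to 41 Cast hits, a log2 ratio of -3.74, while the F0 strains had 346 ± 2.98 and 321 ± 6.76 HPM and did not differ by the test (log2 -0.09, adjusted p = 0.28). Its allele-specific hits were 4.33% of its F1 count equivalents, against a median of 48.4% over all genes. Sncg, a synuclein of ganglion cells, behaved alike, with a log2 ratio of -2.93, an F0 difference of -0.09 (adjusted p = 0.40) and hits at 9.58% of count equivalents. For such genes the ratio rests on a small share of the read pairs.

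The genes with the most hits among those at least 1.5-fold unequal in both crosses were Sag, Pde6g, Eno1, BC027072, Aldoc, Hspa8, Impg2 and Samd7. Sag encodes arrestin 1, which ends the light response of rods (chr1:89700255-89741733). It had 11575 to 21375 B6 hits (median 17956.5) and 22047 to 37139 Cast hits (median 32308.5), which do not overlap. The log2 ratio was 0.85 in F1 B6xCast and 0.83 in F1 CastxB6 (SE of the mean 0.010, adjusted p = 1.1e-106), and in F0 4425 ± 260 against 9666 ± 460 HPM. Samd7, a transcriptional repressor of photoreceptors (chr3:30645215-30666096), had 1045 to 1668 B6 hits and 5755 to 8737 Cast hits, a log2 ratio of 2.49. Its F0 difference had the same direction and a size of 1.11.

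Impg2, a proteoglycan of the matrix around photoreceptors, had a log2 ratio of 0.89 with 2528 to 3732 B6 and 4819 to 7105 Cast hits, and 0.90 in F0. BC027072, a photoreceptor protein linked to retinitis pigmentosa, had 0.72 in F1 and 0.69 in F0. Aldoc, the aldolase of neural tissue, had 0.78 and 0.74. In these genes the allelic and F0 differences were close in size. Pde6g, the inhibitory subunit of the rod phosphodiesterase (chr11:120308919-120314814), was different. The Cast allele took 35.1% to 38.4% of its hits, with 10247 to 15699 B6 and 6389 to 9305 Cast hits and a log2 ratio of -0.75 (SE 0.013). The F0 strains had 2238 ± 131 and 2126 ± 121 HPM of it (log2 -0.06, adjusted p = 0.61). Eno1 and Hspa8, an enolase and a constitutive chaperone, gave -0.90 and 0.77 but had 36.3% and 34.2% of F0 count equivalents as unique hits, and Hspa8 had the opposite sign in F0 (-0.49). The F0 difference of Eno1 was -3.29, while its F1 log2 ratio on count equivalents was -0.11.

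Photoreceptors turn light into a change of membrane current through an opsin, transducin, phosphodiesterase and the cyclic nucleotide-gated channel, and shut that signal off with arrestin, a receptor kinase, recoverin and guanylate cyclase. Across 5 lists of their genes (rod and cone phototransduction, recovery, outer segment, transcription factors), 52 of 62 genes tested were called in both crosses (83.9%, beside 37.4% of all genes and 77.0% of those with at least 5000 hits), 25 with Cast higher and 27 with B6 higher. These genes are deep, with a median of 7959 hits per library and 55 of 62 above 1000. Their median absolute log2 ratio was 0.18 beside 0.17 over all genes. A fold of at least 1.5 was found in 12 (19.4%, beside 11.7% of all genes), 9 with Cast higher (Sag, Samd7, Impg2, BC027072, Gngt1, Nxnl1, Nxnl2, Cngb3, Fscn2) and 3 with B6 higher (Pde6g, Rpgrip1, Cnga3). Of these 12, 10 were called in the same direction in F0.

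In the rod cascade all 10 genes were called, beside 37.4% of all genes and 77.0% of those with at least 5000 hits, 8 of them with B6 higher, at a median log2 ratio of -0.08. Gnat1, the alpha subunit of rod transducin, stood at -0.07 and Pde6b and Pde6a, the catalytic subunits of the phosphodiesterase, at -0.09 and -0.16. Scaling the alleles separately, by TMM, moved the median of all genes from -0.03 to 0.00. Without the library as a block 5 of the 10 were called, and by limma on count equivalents 4. Over all genes these tests called 2489 and 2532. Gnat1 and Pde6b, and Nrl of the transcription factor list, were no longer called by either. Gngt1, the gamma subunit of rod transducin, was higher from Cast, at 62.1% to 65.2% Cast hits and a log2 ratio of 0.84, and in F0 757 ± 115 against 1496 ± 97.9 HPM. The rod channel split, with Cnga1 at -0.24 and Cngb1 at 0.26.

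In cones, 6 of 8 genes were called (75%, beside 37.4% of all genes), 3 of which were also called that way in F0. Gnat2, of cone transducin, had 0.39 between the alleles and was called the opposite way in F0 (-0.19). Its hits were 18.5% of its F1 count equivalents, on which it was not called (0.08). The channel subunits again went apart, Cngb3 at 0.70 with 114 to 189 B6 and 191 to 292 Cast hits and Cnga3 at -0.63 with 97 to 145 B6 and 57 to 98 Cast hits. The F0 differences were 0.49 and -1.27. Opn1sw, the short-wavelength opsin, had an allelic ratio of -0.18 and a larger F0 difference of -0.81. In the recovery list, 9 of 10 genes were called (90%, beside 77.0% of genes with at least 5000 hits). Among them Rcvrn was at 0.57 and Guca1a at 0.44, with Cast higher. Guca1b, Gnb5 and Rgs9 were at -0.28, -0.28 and -0.25. Guca1a and Guca1b, which activate guanylate cyclase at low calcium, thus differed in direction. Pdc, the transducin-binding phosducin, was not called, with 23248 to 33304 B6 and 23743 to 33404 Cast hits, a log2 ratio of 0.01 (SE 0.0093, adjusted p = 0.27). With TMM factors it was called at 0.04 (adjusted p = 4.3e-05).

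Of 21 outer segment genes, 17 were called (81.0%, beside 37.4% of all genes and 77.0% of those with at least 5000 hits). Cast was higher in 10 and B6 in 7. Nxnl1, which encodes the rod-derived cone viability factor, had a log2 ratio of 0.84 (0.58 in F0). Rpgrip1, the anchor of RPGR at the connecting cilium, was lower from the Cast allele, at 37.4% to 39.7% Cast hits and a log2 ratio of -0.66 (-0.78 in F0). It overlaps Supt16h. Prom1, needed for disc formation, had -0.27 between alleles and 0.06 in F0. Among 13 photoreceptor transcription factors 10 were called (76.9%), and apart from Samd7 the largest absolute log2 ratio among them was 0.46. Prdm1, which keeps photoreceptor precursors from a bipolar fate, had 0.46 and a larger F0 difference, with 23.05 ± 2.02 HPM in C57BL/6J and 54.1 ± 0.68 in Cast/EiJ, and Nrl, the rod-determining factor, had -0.11. Mef2d, at -0.20, had the opposite sign on count equivalents (0.01).

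Reference sequence upstream of 3 of these genes is shown because their alleles differed by at least 1.5-fold, their windows hold a match and they are transcribed in photoreceptors, where the homeodomain factor CRX binds the core TAATCC. Each window holds the 250 bases before the start site, in RefSeq on GRCm38.p6, with the core or its reverse complement GGATTA in capitals. The Cast bases of these windows were not analysed here.
Sag, chr1:87803430-87803679, plus strand: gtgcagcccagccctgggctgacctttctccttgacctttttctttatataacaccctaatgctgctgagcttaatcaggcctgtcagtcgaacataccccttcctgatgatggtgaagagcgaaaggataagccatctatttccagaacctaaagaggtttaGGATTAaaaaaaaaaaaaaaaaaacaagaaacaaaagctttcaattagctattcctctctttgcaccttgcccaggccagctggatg
Samd7, chr3:30746043-30746292, plus strand: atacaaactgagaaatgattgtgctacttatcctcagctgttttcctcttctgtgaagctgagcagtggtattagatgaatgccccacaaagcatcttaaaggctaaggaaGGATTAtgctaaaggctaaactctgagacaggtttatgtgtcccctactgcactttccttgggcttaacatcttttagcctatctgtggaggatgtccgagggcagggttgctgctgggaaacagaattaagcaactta
Rpgrip1, chr14:52110653-52110902, plus strand: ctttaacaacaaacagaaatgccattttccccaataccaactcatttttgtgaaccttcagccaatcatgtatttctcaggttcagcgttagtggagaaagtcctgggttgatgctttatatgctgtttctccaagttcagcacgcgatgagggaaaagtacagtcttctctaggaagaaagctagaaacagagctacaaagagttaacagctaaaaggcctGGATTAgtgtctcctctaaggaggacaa
The core begins 87, 139 and 28 bases before the start site. Of the 12 genes above, 9 had an entry and 5 of these held the core on either strand (Sag, Samd7, Rpgrip1, Gngt1, Nxnl2), while 6.25% of all 32851 windows of this length and 5.004% of the 9752 windows of genes tested did. Photoreceptor genes without such imbalance were not compared, and the match describes these letters only.

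A few genes of retinoid handling had large allelic differences. Of 20 visual cycle and retinol dehydrogenase genes, 11 were called (55%, beside 37.4% of all genes). Cast was higher in 5 and B6 in 6. A 1.5-fold difference was reached by 6 (30%, beside 11.7%). The median absolute log2 ratio of the list was 0.24 beside 0.17 over all genes. Rdh1, a retinol dehydrogenase of the short-chain family (chr10:127196777-127205353), had 4 to 9 B6 hits and 171 to 266 Cast hits, a log2 ratio of 5.14 (SE 0.13) and an F0 difference of 4.38. Its relative Rdh9 (paralogs, so uncertain) had 3 to 7 B6 and 73 to 102 Cast hits and a log2 ratio of 4.15. The annotated spans of these genes overlap on the same strand, so they are not independent. Bco2, which cleaves carotenoids, had 5 to 13 B6 and 71 to 120 Cast hits and a log2 ratio of 3.38, with 2.32 in F0. With B6 higher, Rdh8, the outer segment retinol dehydrogenase, had -0.46.

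The very-long-chain fatty acid list, which covers the making and keeping of docosahexaenoic acid in discs, had 8 of 18 genes called. This is 44.4%, beside 37.4% of all genes. Elovl2, the elongase on that route, had 654 to 907 B6 and 1556 to 2262 Cast hits and a log2 ratio of 1.30 in each cross (1.40 in F0). The fatty acid-binding proteins Fabp5 and Fabp12 went the other way at -1.76 and -0.88, though Fabp5 was not called on count equivalents (-0.16). Adipor1, a receptor needed to retain docosahexaenoic acid, had 0.43. In the cholesterol list 9 of 23 were called (39.1%), led by Pmvk, phosphomevalonate kinase, at -1.17 and Hsd17b7 at -0.84. Srebf1 had 0.37 between alleles and -0.29 in F0.

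Of 6 Usher syndrome genes tested, 5 were called (beside 37.4% of all genes), 4 with B6 higher, and 4 had a fold of at least 1.5 (beside 11.7%). Beside Myo7a these were Gpr98, the large adhesion receptor of the periciliary membrane, with 2215 to 3209 B6 and 1103 to 1532 Cast hits and a log2 ratio of -1.05 (-1.33 in F0), the calcium-binding Cib2 at -0.92 (-0.97 in F0), and Cdh23, a cadherin of the same complex, at 0.87 with 16 to 30 B6 and 25 to 56 Cast hits. Cdh23 had 2.71 in F0 and was not called on count equivalents (log2 1.07, adjusted p = 0.20 by limma). It overlaps 4632428N05Rik and Gm17455, and its unique hits came to 136% of its count equivalents in F0 and 127% in F1. Pcdh15 was called at -0.16. The values of Cdh23 overlapped between the alleles, and those of Gpr98 and Cib2 did not.

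Bardet-Biedl genes, which sort membrane proteins into the cilium, had 9 of 17 called (52.9%, beside 37.4% of all genes). B6 was higher in 8 of them (beside 21.3% of all genes), and the median log2 ratio was -0.19 beside -0.03 over all genes. Limma on count equivalents called 3 of the 17, DESeq2 with the shared library size 4 and the test without the library as a block 5. Over all genes these called 2532, 1946 and 2489, so the standing of the list against all genes depends on the test. Bbs7 had 1514 to 2168 B6 and 732 to 1047 Cast hits and a log2 ratio of -0.99 (-1.20 in F0), and Bbs12 had -0.66. Bbs9 was the called gene with Cast higher, at 0.17. Of 37 intraflagellar transport and transition zone genes, 17 were called (45.9%), 8 with Cast higher and 9 with B6 higher. Invs was at 0.74, B9d1 at 0.66, Ift46 at -0.57 and Arl3 at -0.54. By limma on weighted log expression Ift46 was at -0.09 and was not called. Arl3 had -0.20 in F0 (adjusted p = 0.15). Among 7 splicing factors of retinitis pigmentosa 4 were called (57.1%), including Prpf31 at 0.38 and Rp9 at -0.57.

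**Figure D3:**
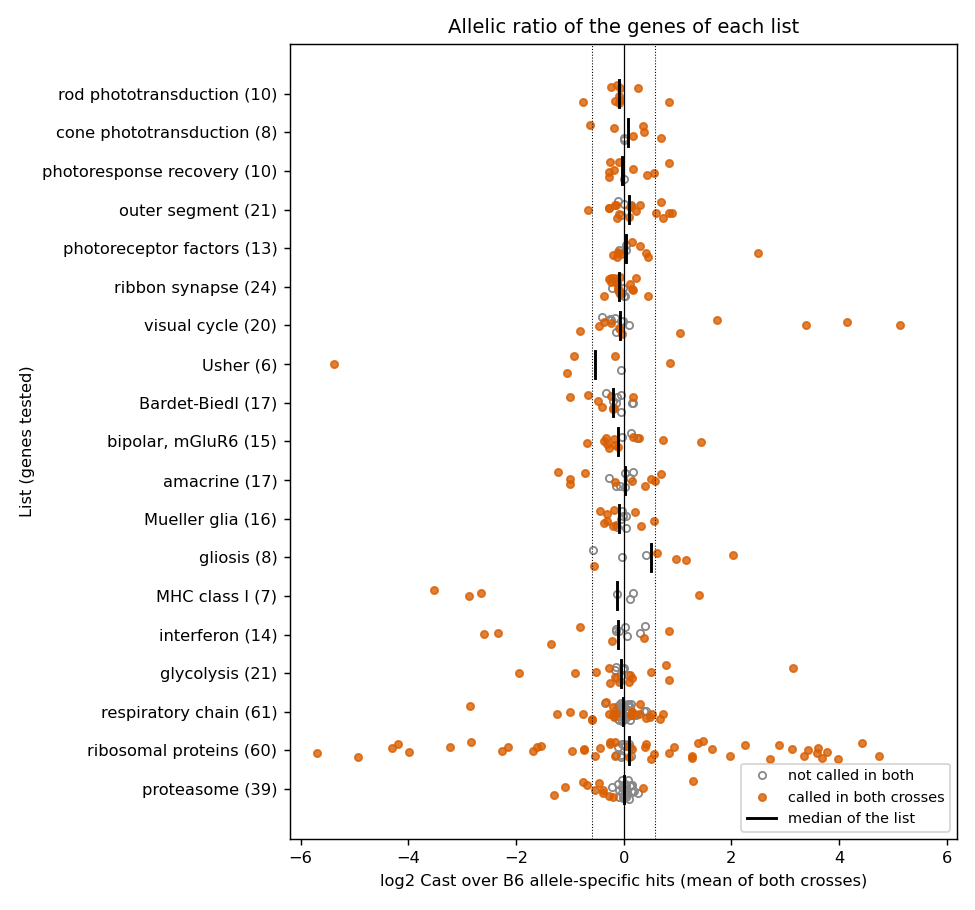
The log2 ratio of Cast over B6 hits (x axis) is shown for every gene tested of 19 lists (y axis, number of genes in parentheses), filled where called in both crosses and open where not, with the median of the list as a black bar and dotted lines at a fold of 1.5. No ribbon synapse or Mueller glia gene passes the dotted lines, 2 of 10 rod genes do, and ribosomal protein genes spread from -5.70 to 4.75.

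Genes of the photoreceptor terminal differed little between the alleles, near the size seen in deep genes. Of 24 ribbon synapse genes 18 were called (75%, beside 37.4% of all genes), 13 with B6 higher (beside 21.3%). Of the 18, 7 were called the same way in F0. Without the library as a block 7 of the list were called, and by limma on count equivalents 8. The median absolute log2 ratio was 0.12, beside 0.17 over all genes and 0.13 for those with 1000 to 5000 hits. None reached a fold of 1.5, beside 11.7% of all genes and 5.81% of those with 1000 to 5000 hits. The extremes were Cabp4, a calcium sensor of the photoreceptor terminal, at 0.46 and the active zone gene Rims1 at -0.37. Unc13b, which primes vesicles, had -0.28 and Lrit1, a leucine-rich protein of the terminal, 0.24. Of 15 bipolar genes 12 were called (80%, beside 37.4% of all genes). A fold of at least 1.5 was found in 3 (20% of the list, beside 11.7% of all genes). The median absolute log2 ratio of the bipolar list was 0.27 beside 0.17 over all genes. Cabp5, a calcium-binding protein of bipolar cells, had 774 to 1097 B6 and 2038 to 2807 Cast hits and a log2 ratio of 1.43 (1.29 in F0), Cacna1s 0.73, Car8 -0.69 and Trpm1, the channel gated by mGluR6, -0.37. Trpm1 overlaps Mir211.

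Amacrine transmitter genes had 10 of 17 called (58.8%, beside 37.4% of all genes). A fold of at least 1.5 was found in 5 (29.4%, beside 11.7% of all genes and 19.7% of those with 50 to 200 hits). In F0, 4 of the 10 and 3 of the 5 were called in the same direction. The list had a median absolute log2 ratio of 0.26 beside 0.17. Penk, proenkephalin, had 28 to 51 B6 and 6 to 21 Cast hits and a log2 ratio of -1.22, Vip had 36 to 66 B6 and 12 to 31 Cast hits, and the glutamate transporter gene Slc17a8 had a log2 ratio of -0.99. Th, the rate-limiting enzyme of dopamine synthesis, had 21 to 46 B6 and 48 to 61 Cast hits and 0.70, with 1.01 in F1 B6xCast and 0.39 in F1 CastxB6. The peptide gene Sst had 0.58 and Gad2, which makes GABA, 0.51. Of 15 ganglion cell genes 4 were called (26.7%), Sncg, Thy1 at -0.30, Nefl at -0.18 and Opn4, melanopsin, at 0.51. Of 29 inner retina transcription factors 9 were called (31.0%, beside 37.4% of all genes), and none reached a fold of 1.5. The extremes were Sox8 at 0.54 and Neurod4 at -0.37.

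Of 39 GABA, glycine and glutamate receptor genes 18 were called (46.2%, beside 37.4% of all genes). Gabra2, a GABA-A receptor subunit, had 49 to 89 B6 and 162 to 227 Cast hits and a log2 ratio of 1.37 (1.79 in F0), Gabra4 0.84, and the metabotropic receptor Grm8 -1.13. Potassium channels had 22 of 48 called (45.8%), with the inward rectifier Kcnj11 at -0.98 and the modifier subunit Kcng4 at -0.90. In the axon guidance list 21 of 52 were called (40.4%), with Sema7a at 1.16 and Slit1 at -0.74. Each gene named here had the same sign in F0.

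Glial lists differed in the size of their imbalance, and some of their genes also differed in depth. Of 16 Mueller glia genes 10 were called (62.5%, beside 37.4% of all genes) and none had a fold of 1.5 (beside 11.7%). Crym was at 0.57, the water channel Aqp4 at 0.33, Dkk3 at -0.36 and Vim at -0.45. Of 8 gliosis genes 5 were called (62.5%), for a median log2 ratio of 0.51. With Cast higher and at least 1.5-fold there were 4 (beside 4.87% of all genes). Aqp4 and Dkk3 averaged 2505.5 and 8455.5 hits per library, and the gliosis genes A2m and Cp 114.8 and 1847.8. Of all genes with 50 to 200 hits, 19.7% had a fold of at least 1.5. With a minimum of 200 hits, 1 gliosis gene was called. Serpina3n, a protease inhibitor raised in reactive glia, had 5 to 17 B6 and 40 to 57 Cast hits and a log2 ratio of 2.02 (0.66 in F0). A2m, a protease trap, had 1.15 and the oncostatin M receptor gene Osmr 0.98, while Cp, ceruloplasmin, had -0.55.

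Of 7 class I antigen presentation genes 4 were called, all with a fold of at least 1.5 (57.1%, beside 11.7% of all genes), and the median log2 ratio of the list was -0.13. H2-K1 and H2-D1, the classical class I heavy chains on chromosome 17, had 82 to 132 and 198 to 327 B6 hits and 3 to 18 and 25 to 44 Cast hits, for log2 ratios of -3.53 and -2.87. The nonclassical H2-T24 had -2.65, and Erap1, which trims peptides for class I, had 1.39. In F0 the same genes had -3.28, -3.53, -2.99 and 1.17. F0 Cast/EiJ reads were aligned to a Cast transcriptome, as F1 reads of the Cast allele were. Cast reads lost in that alignment would lower both values, and this was not tested. Interferon-induced genes had 7 of 14 called (50%, beside 37.4% of all genes), 5 with B6 higher, with Ifit2 at -2.60, Oasl2 at -2.33 and Irf7, the factor that amplifies this response, at -1.36. Oasl2 and Irf7 differed more in F0, by -5.58 and -3.40. Parp14 had 0.85 between the alleles and -0.49 in F0. Microglial markers were sparse in these libraries, at 11.9 to 18.2 HPM for 4 genes, and their part in these values was not tested.

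Cd59a, which blocks the membrane attack complex, had 400 to 578 B6 and 134 to 177 Cast hits and a log2 ratio of -1.58 (-1.99 in F0). Vessel genes had 4 of 15 called (26.7%, beside 37.4% of all genes). Among them were Rgs5 of pericytes at -1.31, Pecam1 of endothelium at -0.65 and Tspan12, a partner of the Norrin receptor, at 0.58. Glutathione and antioxidant genes had 13 of 22 called (59.1%), 5 with Cast higher and 8 with B6 higher. Gstm7 had 2 to 13 B6 and 48 to 82 Cast hits and a log2 ratio of 3.22, Gstz1 1.12 and Gstm1 1.04, against Gsta4 at -0.99, Gstp1 at -0.87 and catalase, Cat, at -0.65. Gstm genes are paralogs and their values are uncertain. Hits were 13.5% and 16.5% of the F1 count equivalents of Gstm7 and Gstm1, and Gstp1 had unique hits at 34.1% of F0 count equivalents.

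Metabolic and housekeeping lists ranged widely. Of 60 cytosolic ribosomal protein genes, 49 were called (81.7%, beside 37.4% of all genes). A fold of at least 1.5 was found in 36 (60%, beside 11.7%), 21 with Cast higher and 15 with B6 higher. The median absolute log2 ratio was 1.28 beside 0.17 over all genes. On count equivalents the median of the ribosomal list was 0.32. Unique hits made up a median of 49.8% of their F0 count equivalents, and 31 of the 60 were among the 232 genes below 50%. Of the 36, 16 were called in the same direction in F0. In the glycolysis list 14 of 21 were called (66.7%). Its extremes were Pgam1 at 3.14 and Gapdh at -1.95, with unique shares of 25.9% and 0.82%, and an F0 difference of -0.46 for Pgam1. Eno2, the neuronal enolase, had 0.84 with a share of 76.3% and 0.69 in F0.

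Respiratory chain subunits were called in 23 of 61 (37.7%, beside 37.4% of all genes), with a median absolute log2 ratio of 0.13. Cox7a2l, which helps assemble respiratory supercomplexes, had 665 to 1074 B6 and 88 to 150 Cast hits and a log2 ratio of -2.85 (-2.49 in F0). On count equivalents Cox7a2l had -1.67. Atp5h had -1.24 and Ndufb7, with 45 to 81 B6 and 25 to 32 Cast hits, had the same sign. Their F0 differences of -0.17 and -0.03 did not pass the test, with hits at 19.9% and 5.97% of F1 count equivalents. On count equivalents neither was called (0.00 and -0.23). Proteasome subunits were called in 12 of 39 (30.8%), with Psma3 at 1.29 and Psma5 at -1.30, and Psma3 had -0.30 in F0. On count equivalents Psma5 had the opposite sign, 0.37. Mitochondrial ribosomal proteins were called in 20 of 68 (29.4%), aminoacyl-tRNA synthetases in 8 of 34 (23.5%) and chaperones in 24 of 63 (38.1%). Among aldehyde and carbonyl enzymes 12 of 19 were called (63.2%), with Aldh1l1, a folate enzyme of glia, at -1.78, Akr1e1 at -1.47 and Aldh7a1 at -0.96.

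Numbered Zfp zinc finger genes had 73 of 277 called, 27 with Cast higher and 46 with B6 higher, which is 26.4% beside 37.4% of all genes. Zfp141 had 29 to 51 B6 and 236 to 416 Cast hits and a log2 ratio of 2.95, Zfp365 1.08 and Zfp236 -1.32. Clock genes had 7 of 19 called (36.8%, beside the same 37.4%) and no fold of 1.5, with Per3 at 0.28. DESeq2 with the shared library size called 1 of them. Immediate early genes had 2 of 12 called (16.7%).

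The F0 libraries, which entered no allelic call, gave a second reading of the same genes. There 3762 of the 10406 were called (36.2%), 1684 with Cast/EiJ higher (16.2%) and 2078 with C57BL/6J higher (20%). In whole retina fewer cells of a type and less RNA per cell cannot be told apart, whereas the alleles of an F1 library come from the same cells. Of the 1667 genes with the Cast allele higher in both crosses, 869 were called higher in F0 Cast/EiJ, and of the 2221 with the B6 allele higher, 1277 were called higher in F0 C57BL/6J. Together these are 2146 genes, 55.2% of the allelic calls and 57.04% of the F0 calls, and 106 were called in the opposite direction. Of the 1214 genes with a fold of at least 1.5, 938 (77.3%) were called the same way in F0 and 25 the opposite way. Among the 4267 genes not called on the allelic average, 862 were called in F0.

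The share called the same way in F0 was higher where more of the reads were informative. Where allele-specific hits were at least 40% of the F1 count equivalents, 745 of 895 genes with a fold of at least 1.5 were called the same way in F0 (83.2%). Between 20% and 40% this was 151 of 212 (71.2%), between 10% and 20% 28 of 62 (45.2%), and below 10% 14 of 45 (31.1%). Of these 45, 39 had B6 higher. On the authors' count equivalents, 3839 of the 3888 genes called in both crosses had the same sign (98.7%). What share of the differing genes this accounts for was not tested.

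**Figure D4:**
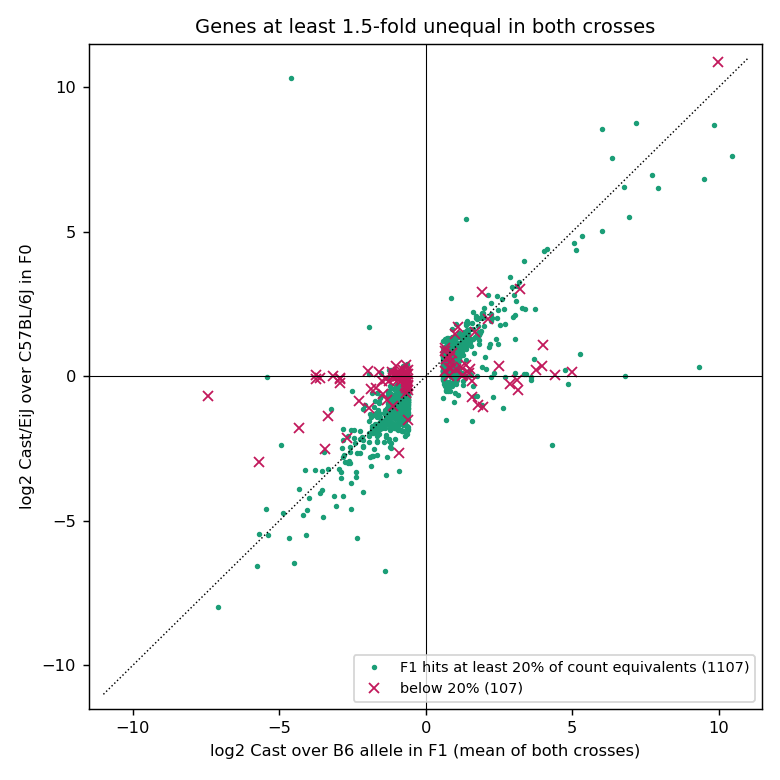
For the 1214 genes at least 1.5-fold unequal in both crosses, the log2 ratio of the Cast over the B6 allele in F1 (x axis) is plotted against the log2 ratio of the parental strains, Cast/EiJ over C57BL/6J (y axis), with the dotted line marking equal values. Points follow the line where hits are at least 20% of count equivalents (dots), and many genes below 20% (crosses) lie near 0 on the y axis.

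The crosses differed in few genes. The allelic ratio differed between F1 B6xCast and F1 CastxB6 in 40 genes (0.384%), and 28 genes were called in both crosses with opposite directions (0.269%). By the smaller of their absolute log2 ratios, the 6 largest of these were Peg3, Rasgrf1, Sgce, Snrpn, Zdbf2 and Usp29, which are known imprinted genes, and in each the copy of the father was higher. The Cast share of Peg3 was 0.073% to 0.093% in F1 B6xCast and 99.96% to 100% in F1 CastxB6. 7 of the 40 were called in the same direction in both crosses, Bub1b, Gaa, Grk1, Nhlrc1, Samd7, Tspan10 and Vti1b. Samd7 had a Cast share of 82.5% to 84.3% in F1 B6xCast and 85.4% to 86.8% in F1 CastxB6.

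Imbalance in the same direction was spread over the genome. It was called in 32.6% of genes tested on chromosome 17 and 40.2% on chromosome 6, with the other autosomes between. At the edge of the 50-hit minimum, Cdh16, among 5 genes just inside at 50 hits, had 31 to 40 B6 and 7 to 28 Cast hits and was called at -1.29, and Abi3bp, just outside at 49.8 hits, had 129 B6 and 170 Cast hits in all.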

How the data were processed

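Retinas of 12 pools, 3 per parental strain and 3 per cross, were sequenced by the authors as unstranded read pairs of 101 bases. Reads were trimmed with Trim Galore 0.2.6 and aligned with Bowtie 0.12.9 to strain transcriptomes (Ensembl 67, NCBI37). F0 reads were aligned to the transcriptome of their own strain and F1 reads to those of both strains. Expression was quantified with MMSEQ (trimmer and aligner versions per the submitters' notes). The deposited unique hits are counts of read pairs that match 1 gene, and in F1 libraries 1 allele. The authors also deposited count equivalents, a signal that divides shared reads by model, and log expression on a natural log scale. A further deposited table holds the posterior SD of that expression, used as a score to weight it. A table of the authors' own model comparisons (posterior probabilities, imprinting Bayes factors and fitted effects) was not used.

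The members and gene lists were chosen with earlier results of these data known. Unique hits of 10406 genes with a mean of at least 50 per F1 library were fitted with edgeR 4.0.16 (R 4.3.3), its quasi-likelihood test, with the library as a block, a Cast effect in each cross and 1 library size for both alleles. Adjusted p-values are Benjamini-Hochberg over all genes. A gene was called in both crosses when it passed 0.05 in each with the same sign. F0 libraries were fitted separately with TMM factors. F0 levels are hits per 1000000 autosomal unique hits. The script was tested on simulated data.

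F1 libraries held 8652130 to 12140170 autosomal unique hits and F0 libraries 7799154 to 11011577, and the median standard error of a log2 ratio was 0.060. Intervals and floors leave out all but counting error.

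Named genes followed a rule. It took the 10 largest ratios in each direction with at least 200 hits and no overlap, up to 3 per list and direction, the 8 with the most hits at a fold of 1.5 or more, the 6 most opposite between crosses, genes at the 50-hit edge, those behind small counts, and genes that define a list. Alternatives were DESeq2 1.42.0, limma 3.58.1 on count equivalents (log2 with a pseudocount of 1) and on weighted log expression, TMM factors, other minima, every biotype, other blocks, a separate fit per cross, a test against a minimum fold (glmTreat), a threshold of 0.01 and leaving out each library. Leaving out genes with F0 unique hits under 50% of count equivalents was chosen after seeing the data. Promoter windows are from RefSeq on GRCm38.p6 and were matched by symbol, and all other coordinates are NCBI37. Some genes tested are not reported here by name.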

Additional observations from a re-analysis of the deposited data

Results flagged for a closer look

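In 13 of the genes named in the report the log2 ratio of Cast over B6 differed between F1 B6xCast and F1 CastxB6 by the test of that difference, edgeR's quasi-likelihood test with Benjamini-Hochberg adjustment. The ratio in F1 B6xCast minus that in F1 CastxB6 was -21.83 for Peg3, -18.91 for Sgce, -17.32 for Rasgrf1, -16.80 for Zdbf2, -16.37 for Snrpn and -16.10 for Usp29. These 6 changed sign between the crosses, and their sizes depend on the prior count because 1 allele had few or no hits. For Samd7 the difference was -0.26 (adjusted p = 5.0e-07), from 2.36 in F1 B6xCast to 2.62 in F1 CastxB6, with no change of sign. The other 6, Bub1b, Gaa, Grk1, Nhlrc1, Tspan10 and Vti1b, kept their direction as well, at adjusted p from 2.3e-07 (Tspan10) to 0.028 (Grk1).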

How the results depend on the processing

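The 3888 genes called in both crosses numbered 3346 to 3539 when 1 library was left out, 3876 with TMM factors (50.1% of them with Cast higher, against 42.9%) and 3772 without genes that share reads. Replicate numbers did not pair the F1 libraries (correlations of deviations -0.034, -0.0051 and -0.027), and the fit with the replicate block called 3845. DESeq2 with its own size factors called 3630 genes on average, 2317 in F1 B6xCast, 2326 in F1 CastxB6, 1913 in both and 22 between crosses, and with the shared library size 3645, 2382, 2357, 1946 and 22. Without the library block the counts were 3174, 3124, 2489 and 22 for each cross, both and the difference. Limma on count equivalents called 3204 in F1 CastxB6, 2532 in both and 20 between crosses. Against a minimum fold (glmTreat) the counts were 1781, 1531, 1561, 1250 and 26. The F0 count of 3762 was 2844 to 3901 with 1 library left out and 5286 with its replicate block, where same-numbered libraries correlated at 0.53, 0.095 and 0.39. Signs turned on count equivalents for Mef2d (0.010) and Psma5 (0.37), and on weighted log expression for Mef2d (0.21), Psma5 (0.36), Ndufb7 (1.23) and Rpl29 (0.50), where the cause was not tested. Genes of 50 to 200 hits had a smallest called difference of 0.29 on the log2 scale.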

Other observations

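Neighbouring genes were looked at after their values were seen. Of 163 pairs of adjacent members in which both genes had a fold of at least 1.5, 98 (60.1%) had the same allele higher. Of the 147 pairs that do not overlap 86 did (58.5%). Over all genes with such a fold 41.8% had Cast higher, so many pairs of distant genes would also share a direction. Pairs that are not adjacent were not compared. Some adjacent genes are paralogs with uncertain values, such as Gstm7 and Gstm1 or Rdh1 and Rdh9. Slc27a2, a fatty acid transporter, and Hdc, which makes histamine, lie next to each other on chromosome 2 with log2 ratios of 3.36 and 1.74. The fatty acid-binding genes Fabp5 and Fabp12 on chromosome 3 had -1.76 and -0.88, though Fabp5 had -0.16 on count equivalents. Rgs5 and Rgs4, regulators of G-protein signalling on chromosome 1, had -1.31 and -0.59. In other pairs the alleles went apart, such as Pkp1 at -1.85 and Igfn1 at 1.10 on chromosome 1.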
